A study of Homo sapiens with 6 samples.

Results

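The genes described here are 10 secreted inflammatory cytokines and chemokines, IL6, IL11, LIF, CXCL1, CXCL2, CXCL3, CXCL5, CXCL8, CCL2 and CCL20, and all 10 were found by gene name among the 27009 genes of the table. They were chosen by name as IL-6 family cytokines and CXC and CC chemokines of the senescence secretome, with the fold changes of these same 6 libraries already known. Their levels and fold changes are therefore given as a description, with no test. IL11 was higher in the libraries labelled nPD-L1, with a ratio of means of 11.3. IL6, CXCL3, CXCL2, CCL20 and CXCL5 were lower there, with ratios of vector to nPD-L1 means of 7.62, 4.45, 3.67, 2.81 and 1.47, and LIF, CXCL1, CXCL8 and CCL2 differed less or overlapped between the groups.

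The 6 libraries came from Hep3B, a human hepatocellular carcinoma line. In both groups the cells' own PD-L1 gene had been knocked out. The 3 vector libraries came from knockout cells carrying the empty vector, and the 3 libraries labelled nPD-L1 came from knockout cells carrying a PD-L1 mutated in a short stretch of residues so that it localizes to the nucleus. That PD-L1 was delivered by lentivirus in a plasmid with a CMV promoter, which is not the gene's own, and the cells were selected with puromycin. The study asked how nuclear PD-L1 changes gene expression in tumor cells. Whether the stable cells were clones or pools was not given in the sources used here, and the labels do not say that replicates were separate cultures, so p values measure only the spread between these libraries.

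IL-6, IL-11 and LIF are cytokines of one family, which bind their own receptor subunits and signal through the shared subunit gp130, encoded by IL6ST, to the kinases JAK1 and JAK2 and the factor STAT3. CXCL1, CXCL2, CXCL3, CXCL5 and CXCL8 are CXC chemokines that attract neutrophils through the receptors CXCR1 and CXCR2. CCL2 attracts monocytes through CCR2, and CCL20 attracts CCR6-bearing lymphocytes and dendritic cells. Transcription of these genes is classically driven by NF-kB, AP-1 and C/EBP factors, and many of the mRNAs carry AU-rich elements in the 3′ untranslated region (UTR) that shorten their life. In liver, IL-6 is the main inducer of the acute-phase proteins.

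The upstream DNA of these genes was searched for the letters of motifs that such factors are known to bind. The set of RefSeq (GRCh38.p14) promoter windows used here held 8 of the 10 genes, with no entry for LIF or CCL2. In the 250 bases before the start, the kappaB-type motif GGNNTTTCC, searched on both strands, was present in 7 of 8 genes, all but IL11, against 5.48% of 27305 promoters of the same length. The AP-1 motif TGANTCA, which reads the same on both strands, was present in 2 of 8, IL11 and CXCL8, against 6.60% of promoters. The C/EBP-type motif TTGCNNAA, on both strands, was present in IL6 and CXCL2, against 9.13% of promoters. None of these matches overlapped another. The runs below show the gene of the largest higher level (IL11) beside IL6, the 3 near-identical CXC genes and CCL20, written 5′ to 3′ on the gene's own strand from 150 bases before the RefSeq start, with kappaB-type and AP-1 matches in capitals. Runs were ended so that none held more than 30 bases annotated as UTR in GENCODE v29. The IL6 run lies at chr7:22727050-22727176 (+ strand), IL11 at chr19:55370464-55370613 (− strand), CXCL1 at chr4:73869243-73869392 (+ strand), CXCL2 at chr4:74099264-74099345 (− strand), CXCL3 at chr4:74038690-74038839 (− strand) and CCL20 at chr2:227813692-227813841 (+ strand).
IL6: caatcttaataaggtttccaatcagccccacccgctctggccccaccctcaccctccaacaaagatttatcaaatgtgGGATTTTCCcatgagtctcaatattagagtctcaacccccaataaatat
IL11: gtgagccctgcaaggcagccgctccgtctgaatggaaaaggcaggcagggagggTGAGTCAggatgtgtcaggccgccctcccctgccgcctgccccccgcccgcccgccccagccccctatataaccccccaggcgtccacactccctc
CXCL1: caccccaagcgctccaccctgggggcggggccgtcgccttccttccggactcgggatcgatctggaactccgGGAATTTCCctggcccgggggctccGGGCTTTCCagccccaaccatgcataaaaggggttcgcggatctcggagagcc
CXCL2: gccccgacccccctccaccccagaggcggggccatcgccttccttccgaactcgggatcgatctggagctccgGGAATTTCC
CXCL3: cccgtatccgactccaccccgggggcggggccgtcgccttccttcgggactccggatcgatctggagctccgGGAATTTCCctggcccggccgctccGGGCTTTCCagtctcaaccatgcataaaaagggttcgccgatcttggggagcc
CCL20: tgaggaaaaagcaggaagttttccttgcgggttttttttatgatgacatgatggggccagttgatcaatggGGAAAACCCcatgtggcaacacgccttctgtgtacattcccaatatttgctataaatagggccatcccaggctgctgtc

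IL6 held 1 kappaB-type match, 72 to 64 bases before the start. IL11 held none, and its AP-1 match lay 96 to 90 bases before the start. In CXCL1 and CXCL3 the kappaB-type matches lay 78 to 70 and 53 to 45 bases before the start, and in CXCL2 they lay 77 to 69 and 53 to 45 bases before it, the nearer one beyond the printed run. CCL20 held its match on the other strand, 79 to 71 bases before the start. RefSeq starts differ from the gene bodies in the deposited table, so that all 127 bases of the IL6 run, all 150 of the CCL20 run, 118 of the CXCL3 run and 30 of the CXCL2 run lie inside the deposited gene body, while those of IL11 and CXCL1 lie outside it. A match describes the letters and not binding in these cells.

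Values are scaled reads, that is, a gene's read count over the size factor of its library. Depth was 17427519 to 22253295 reads on genes, of which the top 10 genes held 6.43% to 7.43%. Vector libraries 2 and 3 stood farthest apart within a group, with 1281 of 15076 genes over 2-fold apart, against 549 to 883 in the other pairs of replicates. CD274, the gene of PD-L1, had 28.3, 38.4 and 47.8 scaled reads with vector against 16.8, 19.2 and 30.9 where nPD-L1 was labelled (log2 fold change −0.76, SE 0.34, adjusted p = 0.338), so the gene of the transgene was not higher where its label places it. Whether its reads would be counted on CD274 is not stated. Of 11 hepatocyte markers 10 were in the table, and ALB, APOA1, APOB, TTR, TF and AHSG reached at most 3 reads in any library, which goes against a hepatocyte profile. FOXA2 made up most of the list's sum of 1860 to 2096 in vector and 820.0 to 911.0 in nPD-L1 libraries, and fell (log2 fold change −1.40, adjusted p = 1.2e-05). HNF4A, at 6.24 to 19.2 and 33.8 to 51.6, rose (1.91, SE 0.42, adjusted p = 0.0232). Of 12 immune markers 7 were in the table, with sums of 50.5 to 73.8 and 73.8 to 92.4, and PTPRC and LYZ, markers of leukocytes and myeloid cells, were at or near 0, while ITGAM stood at 31.3 to 56.3, CD8A at 7.56 to 23.3 and CD14 at 1.93 to 14.3 over all 6 libraries. Of 12 stromal and endothelial markers 8 were in the table, with sums of 237 to 307 and 669.6 to 711, of which COL1A1 was 49.9 to 82.8 and 445 to 487 and rose (2.84, adjusted p = 8.0e-06). LUM stood at 99.9 to 182 and ACTA2 at 51.1 to 84.8 over all 6 libraries, while DCN, PECAM1 and VWF were near 0. The part of these differences in the cytokine levels was not tested.

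Of the 10 genes, 5 were lower and 1 higher past an adjusted p of 0.05 in the limma fit across 15076 genes, in which 0.922% of genes were lower, 4.04% higher and 4.96% either. These values chose the genes, so nothing is read from the count. Where passing or missing the threshold is given below for single genes of the 10, it describes the fits and is no support. The groups of libraries did not overlap for 5 genes that were lower and 2 that were higher (IL11 and LIF), while over all genes tested 8.54% did not overlap on the lower side, 12% on the higher side and 20.6% on either. The median log2 fold change was −0.65 over the 10 genes and −0.02 over all genes tested.

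**Figure D1:**
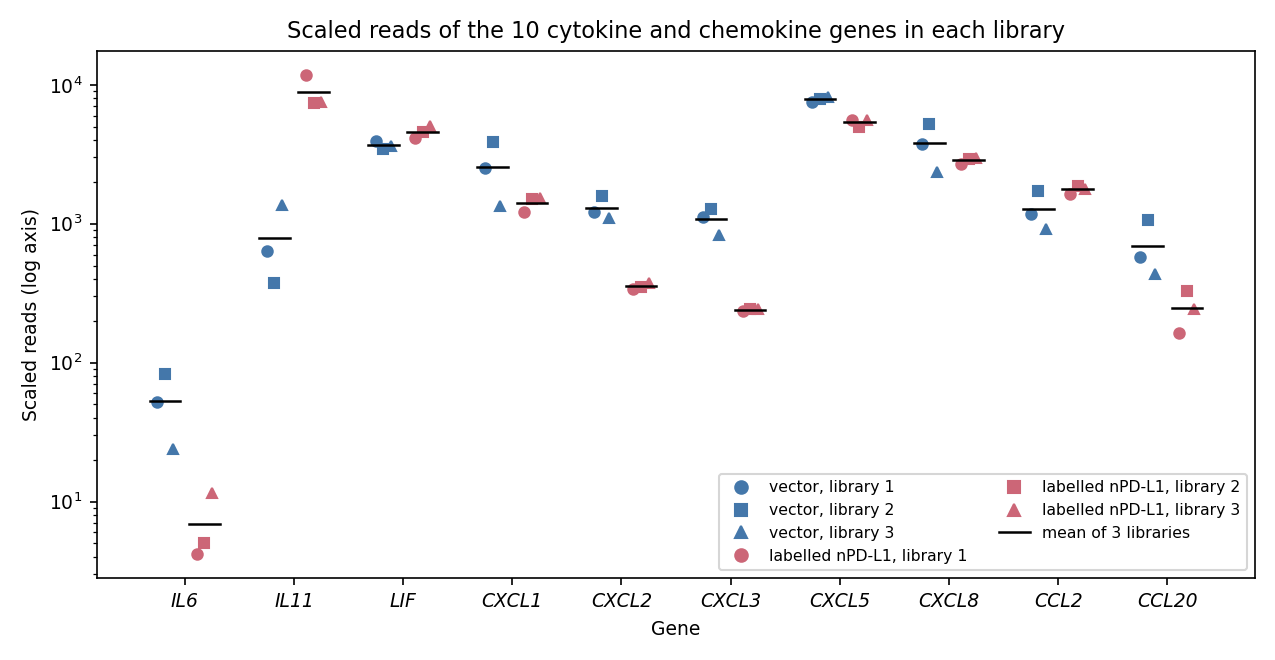
Scaled reads (log axis) of the 10 genes in the 3 vector libraries (blue) and the 3 libraries labelled nPD-L1 (red), with marker shape for the replicate and a bar for the mean. IL11 lies at 373 to 1367 in vector and 7450 to 11821 in nPD-L1 libraries, IL6 at 23.9 to 82.4 and 4.20 to 11.6, and vector library 2 (square) is the highest vector library for 7 genes.

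IL6 (ENSG00000136244, chromosome 7, 22725884 to 22732002, + strand, hg38) encodes the cytokine that gives the family its name. It was the least abundant of the 10 genes per kb in both groups, and stood at 52.5, 82.4 and 23.9 scaled reads in vector libraries 1 to 3 against 4.20, 5.06 and 11.6 in nPD-L1 libraries 1 to 3. These values rest on 52, 73 and 23 reads in vector and 5, 5 and 12 reads in nPD-L1 libraries. All 3 vector libraries lay above all 3 nPD-L1 libraries, and the lowest vector value was vector 3 and the highest nPD-L1 value nPD-L1 3. The log2 fold change was −2.71 (SE 0.52, 95% interval −3.85 to −1.57) on the log2(value + 1) scale, and it was −1.80 with a pseudocount of 10. The adjusted p no longer passed 0.05 without vector 1 or without nPD-L1 1, and the fold change lay between −3.19 and −2.31 as each library was left out. A bulk library cannot tell fewer IL6-expressing cells from less IL6 RNA per cell, here and for the genes that follow.

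IL11 (ENSG00000095752, chromosome 19, 55364389 to 55370463, − strand) encodes interleukin-11, a family member known in fibrosis and in tumor cells exposed to TGF-beta. It stood at 633, 373 and 1367 scaled reads in vector libraries 1 to 3 against 11821, 7450 and 7544 in nPD-L1 libraries 1 to 3. The lowest nPD-L1 library exceeded the highest vector library, vector 3, and vector 2 was the lowest. The log2 fold change was 3.67 (SE 0.43, 95% interval 2.65 to 4.68), and between 3.23 and 4.16 as each library was left out. Of the single libraries left out, vector 2 was the one without which the threshold was missed, and with no filter on low values it was missed too.

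LIF (ENSG00000128342, chromosome 22, 30240447 to 30246851, − strand) encodes leukemia inhibitory factor, which signals through LIFR and gp130. Its values were 3936, 3423 and 3633 in vector libraries and 4119, 4556 and 5019 in nPD-L1 libraries. The groups did not overlap, but the highest vector and the lowest nPD-L1 library were close. Its log2 fold change of 0.31 (SE 0.11, 95% interval 0.08 to 0.55) did not pass the adjusted threshold in any of 16 alternatives.

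Summed over the 3 genes, levels were 4508 ± 581 scaled reads in vector and 13510 ± 2127 in nPD-L1 libraries (mean ± SD, n = 3 each). IL11 made up 16.8% ± 9.2 of that sum in vector and 65.4% ± 7.6 in nPD-L1 libraries, LIF 81.9% ± 8.5 and 34.6% ± 7.6, and IL6 1.25% ± 0.83 and 0.0535% ± 0.034. Such shares carry gene length as well as level, and are compared here between libraries, not between genes.

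**Figure D2:**
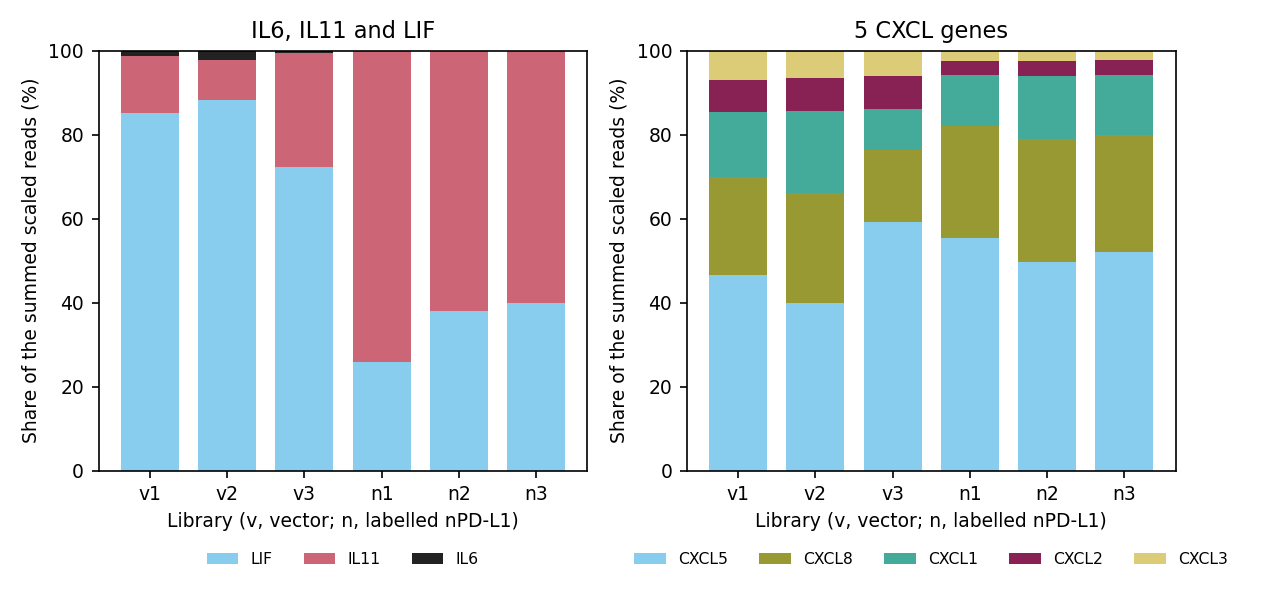
Share (%) of the summed scaled reads taken by each gene in each library, for IL6, IL11 and LIF (left) and for the 5 CXCL genes (right); v1 to v3 are vector libraries and n1 to n3 libraries labelled nPD-L1. IL11 takes 9.61% to 27.2% of the left-hand sum in vector and 60.0% to 74.1% in nPD-L1 libraries, and on the right CXCL3 takes 5.99% to 6.96% in vector and 2.28% to 2.44% in nPD-L1 libraries.

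The 5 CXC chemokines lie together on chromosome 4, in the order CXCL8 (73740506 to 73743716, + strand), CXCL1 (73869393 to 73871242, +), CXCL5 (73995642 to 73998779, −), CXCL3 (74036589 to 74038807, −) and CXCL2 (74097035 to 74099293, −). CXCL3 and CXCL2 had the largest differences of the 5. CXCL3 (ENSG00000163734) stood at 1120, 1272 and 826 with vector against 236, 244 and 243 in nPD-L1 libraries, with a log2 fold change of −2.13 (SE 0.15, 95% interval −2.47 to −1.78). The nPD-L1 libraries were within a ratio of 1.03 of each other, and the lowest vector library lay far above them. CXCL2 (ENSG00000081041) stood at 1223, 1594 and 1091 in vector and at 340, 352 and 372 in nPD-L1 libraries, with a log2 fold change of −1.86 (SE 0.14, 95% interval −2.17 to −1.54). These are the genes of the 10 that passed the adjusted threshold in all 16 alternatives, which is no support for them, as these values chose the genes.

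CXCL5 (ENSG00000163735), the most abundant CXC gene per kb in both groups, had 7486, 7946 and 8181 scaled reads in vector and 5534, 4974 and 5555 in nPD-L1 libraries. Its groups did not overlap, and replicates of a group differed little. The log2 fold change was −0.56 (SE 0.098, 95% interval −0.77 to −0.34), and the threshold was missed only without nPD-L1 2. CXCL1 (ENSG00000163739) ranged more widely in vector libraries, at 2518, 3875 and 1338, against 1207, 1502 and 1524 in nPD-L1 libraries. Vector 3 lay below 2 of the nPD-L1 libraries, so the groups overlapped, and the log2 fold change of −0.75 had an interval from −1.53 to 0.04. CXCL8 (ENSG00000169429), which encodes interleukin-8, stood at 3759, 5245 and 2357 in vector and at 2682, 2925 and 2983 in nPD-L1 libraries. Vector 3 was the lowest of all 6, and the log2 fold change was −0.33 (SE 0.23, 95% interval −0.83 to 0.18). Without vector 3, CXCL1 was −1.15 and CXCL8 −0.63, and both then passed the threshold, whereas without vector 2 they were −0.39 and −0.06 and did not.

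Together the 5 CXC genes had 16610 ± 3100 scaled reads in vector and 10224 ± 393 in nPD-L1 libraries (mean ± SD, n = 3). CXCL2 made up 7.83% ± 0.21 of that sum in vector and 3.47% ± 0.065 in nPD-L1 libraries, and CXCL3 6.44% ± 0.49 and 2.36% ± 0.081. The shares of CXCL5 (48.6% ± 9.9 and 52.4% ± 2.8), CXCL1 (14.9% ± 4.9 and 13.8% ± 1.5) and CXCL8 (22.2% ± 4.7 and 28.0% ± 1.2) overlapped or came close between groups. CXCL1, CXCL2 and CXCL3 are paralogs, and reads could be split between them in counting. In GENCODE v29 transcripts their coding sequences were 90.7% to 94.4% identical over 324 bases, and 5.73% of the 50-base runs of CXCL1 were also present in CXCL2, 5.26% of those of CXCL3 in CXCL2, and 0.573% of those of CXCL1 in CXCL3. Neither CXCL5 nor CXCL8 shared any 50-base run with another of the 5, and they were 61.5% to 68.7% identical to the others in the aligned coding bases.

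CCL2 (ENSG00000108691, chromosome 17, 34255218 to 34257203, + strand), the monocyte chemoattractant, stood at 1181, 1730 and 910.4 scaled reads in vector and 1642, 1869 and 1785 in nPD-L1 libraries. Vector 2 lay above nPD-L1 1, so the groups overlapped, and the log2 fold change was 0.52 (SE 0.19, 95% interval 0.10 to 0.94). Without vector 2 it was 0.77 and passed the threshold, and without vector 3 it was 0.30 and did not. CCL20 (ENSG00000115009, chromosome 2, 227805739 to 227817564, + strand) stood at 573, 1072 and 433 in vector and 165, 330 and 244 in nPD-L1 libraries. The lowest vector library lay above the highest nPD-L1 library, with library 2 the highest of both groups. Its log2 fold change was −1.44 (SE 0.33, 95% interval −2.18 to −0.69), and the threshold was missed without vector 1, vector 2, nPD-L1 1 or nPD-L1 3 and with no filter.

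**Figure D3:**
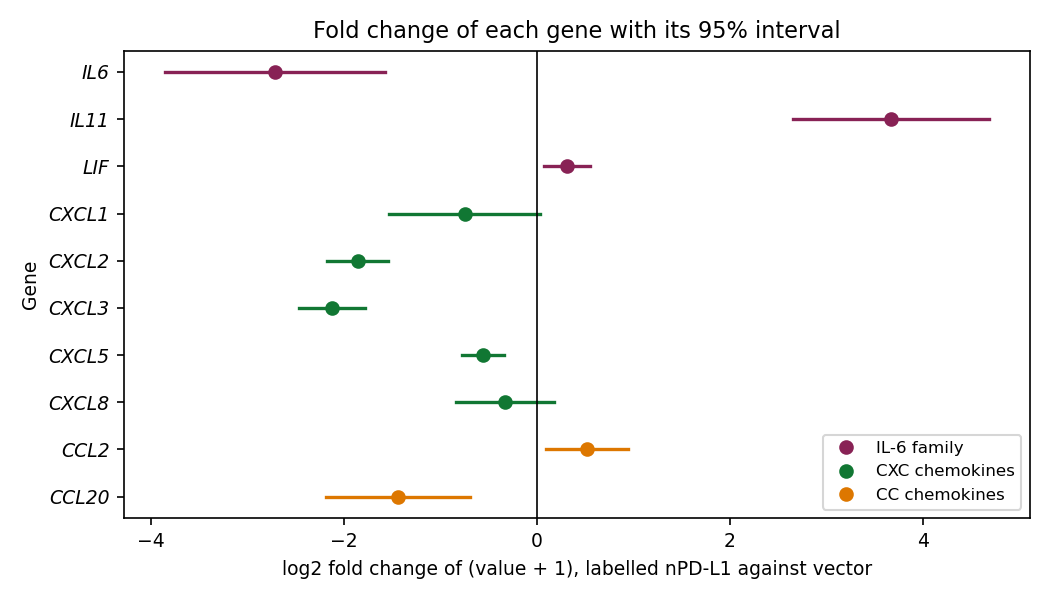
log2 fold change of (scaled reads + 1) in the libraries labelled nPD-L1 against vector for each gene, points with 95% intervals from the limma fit, coloured by family; the vertical line marks no difference. IL11 is at 3.67, CXCL2 and CXCL3 at −1.86 and −2.13, and the intervals of CXCL1 and CXCL8 cross 0.

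Levels per kb of gene length allowed the 10 genes to be ordered within a group. In vector libraries CXCL5 was highest (3101 ± 139 scaled reads per kb, SD, n = 3), followed by CXCL1, CXCL8, LIF, CXCL2, CCL2, CXCL3, CCL20, IL11 (296 ± 193) and IL6 (25.6 ± 14.1). Neighbours in this order overlapped over the libraries, except that CXCL8 lay above LIF and IL11 above IL6. In nPD-L1 libraries IL11 was highest (3346 ± 935), followed by CXCL5 (2110 ± 130), CXCL8, LIF, CXCL1, CCL2, CXCL2, CCL20, CXCL3 and IL6 (3.36 ± 1.95). There CXCL8 and LIF, LIF and CXCL1, CXCL1 and CCL2, and CCL20 and CXCL3 overlapped, and the other neighbours did not. Among the genes tested, 79.8% lay below IL11 per kb in vector and 98.7% in nPD-L1 libraries, and 28.4% and 4.34% lay below IL6. Summed over the 10 genes, levels were 23085 ± 3267 scaled reads in vector and 25746 ± 1816 in nPD-L1 libraries.

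The vector libraries themselves varied in a shared order. Library 2 was highest and library 3 lowest for 7 of the 10 genes, IL6, CXCL1, CXCL2, CXCL3, CXCL8, CCL2 and CCL20, an order found in 26.9% of the genes tested. IL11 had library 3 highest and library 2 lowest, an order found in 27.5%. The SD of log2 values among vector libraries was 0.94 for IL11, 0.88 for IL6, 0.77 for CXCL1, 0.67 for CCL20 and 0.58 for CXCL8, against a median of 0.21 over the genes tested, and 90.3% to 97.4% of genes had a smaller one. In nPD-L1 libraries CXCL3, CXCL2 and CXCL8 had SDs of 0.025, 0.067 and 0.082 (median of all genes 0.15), while IL6 (0.68) and CCL20 (0.50) stayed variable. Vector libraries 2 and 3, which set the ends of most of these ranges, were also the pair farthest apart over all genes, and the part of this in the cytokine levels was not tested.

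Of 12 receptor genes listed for these cytokines, 6 were in the table and 5 could be tested. By limma none passed an adjusted p of 0.05 (0 at an unadjusted p under 0.05, and 0 by edgeR and by DESeq2). Over all 15076 genes tested by limma, 4.96% passed and 2146 had an unadjusted p under 0.05, so 0 of 5 says little. This list and those that follow were chosen with earlier results of these data known. IL6ST, the shared gp130 subunit, stood at 3794, 3888 and 4317 in vector and 3645, 4281 and 5114 in nPD-L1 libraries (log2 fold change 0.11, SE 0.13, 95% interval −0.18 to 0.39). The ligand-binding IL6R had 463, 342 and 604 against 484, 587 and 484 (0.17, interval −0.24 to 0.59). IL11RA, the IL-11 subunit, stood at 87.0 to 109 over all 6 libraries (−0.12, interval −0.52 to 0.27). LIFR stood at 280.1 to 456 in vector and 334 to 424 in nPD-L1 libraries, and OSMR, a subunit for oncostatin M, at 2302 to 2664 and 2617 to 3037, with intervals of −0.35 to 0.45 and −0.05 to 0.41. The atypical receptor ACKR2 had at most 2 reads in a library, and CXCR2 and CCR6 were not among the 27009 genes.

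Of 26 IL-6 signal and acute-phase genes, 23 were in the table and 13 were tested. By limma none passed an adjusted p of 0.05 (1 at an unadjusted p under 0.05, and 0 by edgeR and by DESeq2). With 4.96% of all 15076 genes passing by limma, and 2146 at an unadjusted p under 0.05, 0 of 13 says little. Their median log2 fold change was 0.06, against −0.02 over all genes tested. SOCS3, the feedback inhibitor of STAT3 signaling, stood at 872, 660 and 814 in vector and 1437, 797 and 958 in nPD-L1 libraries (0.41, SE 0.20, adjusted p = 0.388), and the groups overlapped. STAT3 itself differed by 0.06 (interval −0.14 to 0.26). Of the acute-phase genes, the fibrinogen chain FGA (−0.38) was the gene under an unadjusted 0.05, with an adjusted p of 0.311, and SERPINA3, ORM1, HAMP and A2M had at most 3 reads in any library.

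Among 66 other secreted cytokines and chemokines, 43 were in the table and 24 were tested. 1 of them, CLCF1, rose, and none fell, against 4.04% higher and 0.922% lower over all genes tested. Nothing is read from this count either, as the list was chosen with earlier results known. CLCF1, a further ligand of the gp130 family, stood at 463, 351 and 467 in vector and 991, 784 and 847 in nPD-L1 libraries (log2 fold change 1.04, SE 0.14, adjusted p = 0.00154, and 1.1e-08 to 0.0201 over the alternatives).

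Of 24 NF-kB and C/EBP genes, all tested, 3 rose and 1 fell, against 4.04% higher and 0.922% lower over all genes tested. The other 20 did not pass, and the median log2 fold change of the 24 was 0.08. Earlier results of these data were known when the list was chosen, so nothing is read from the count. BCL3, a nuclear IkappaB protein that works with p50 and p52 dimers, stood at 1281, 1196 and 1379 in vector and 2202, 2387 and 2023 in nPD-L1 libraries (0.78, SE 0.10, adjusted p = 0.00126, and 1.5e-08 to 0.0153 over the alternatives). NFKB1, which encodes p105 and p50, had 1105, 1269 and 1105 against 1576, 1684 and 1608 (0.49, SE 0.10, adjusted p = 0.0166), and it passed no longer without vector 1 or without any of the nPD-L1 libraries, with an adjusted p of up to 0.113. CEBPB, the factor first known as NF-IL6, had 3118, 3429 and 2690 against 4863, 4602 and 3880 (0.53, SE 0.12, adjusted p = 0.0328), and it was lost without vector 1, vector 3, nPD-L1 1 or nPD-L1 2, with an adjusted p of up to 0.166.

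The gene that fell was NFKBIZ, which encodes IkappaB-zeta, a coactivator of a subset of NF-kB targets that includes IL6. It stood at 888, 822 and 618 in vector and 343, 400.5 and 398 in nPD-L1 libraries (−1.01, SE 0.15, adjusted p = 0.00223, and 6.1e-08 to 0.0259 over the alternatives). CEBPD, a partner of CEBPB in the acute-phase response, had 923, 1679 and 510.3 against 429, 396.5 and 369 (−1.22, SE 0.37, adjusted p = 0.141), so the groups did not overlap but the spread of the vector libraries was wide. It passed without vector 3 and by edgeR. RELA, the transactivating subunit, differed by 0.27 (adjusted p = 0.21), and NFKBIA, the classical inhibitor, by 0.19 (adjusted p = 0.633).

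Except for LIF and CCL2, the 3′ UTRs of the 10 mRNAs were rich in the AU-rich pentamer ATTTA. In the longest GENCODE v29 coding transcript of each gene the median was 6.66 per kb of 3′ UTR, against 1.77 over 12181 tested genes with a 3′ UTR of at least 100 bases. IL6 had 13.99 per kb, CXCL2 13.9, CXCL3 10.4, CXCL8 7.19, CXCL1 7.08, CCL20 6.24 and CXCL5 5.51. IL11 had 5.56, LIF 2.18 and CCL2 2.66. Of the tested genes, 57.9% had fewer per kb than LIF and 66.2% fewer than CCL2. For the other genes of the 10 this share was 93.2% to 99.7%. The longer motif TTATTTATT was present in 6 of the 10, IL11 (6 copies), CXCL2 (5), CXCL1 (3), LIF (2), CXCL3 (1) and CXCL8 (1), and in 9.65% of the tested genes. IL6, CXCL5, CCL2 and CCL20 held no copy of it. The part of these motifs in the cytokine levels was not tested.

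Of 14 genes for proteins that bind or degrade such mRNAs, all tested, 3 rose and none fell. Over all genes tested, 4.04% were higher and 0.922% lower. The median log2 fold change of the 14 was 0.17. As the list was chosen with earlier results of these data known, nothing is read from the count. ZFP36L1, which binds AU-rich elements and promotes decay, stood at 2580, 2385 and 2400 in vector and 5621, 5036 and 5098 in nPD-L1 libraries (1.10, SE 0.095, adjusted p = 6.1e-05, and 5.6e-22 to 0.00135 over the alternatives). ZC3H12A, which encodes the endonuclease Regnase-1 known to cut IL6 mRNA, had 457, 454 and 424 against 936, 1055 and 950.2 (1.14, SE 0.11, adjusted p = 9.6e-05, and 9.1e-17 to 0.00181 over the alternatives). ARID5A, which is known to stabilize IL6 mRNA against Regnase-1, had 64.6, 64.4 and 92.5 against 182, 159.8 and 160.1 (1.19, SE 0.20, adjusted p = 0.00471). The genes that rose thus included both destabilizing and stabilizing proteins. ZFP36 itself, or tristetraprolin, stood at 208, 234 and 184 against 218, 231 and 247 (0.16, adjusted p = 0.704).

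Around the CXC cluster, 13 further genes of the table lay within 500 kb of any of the 5 chemokines, and 7 were tested. 2 of them fell and none rose, against 0.922% lower and 4.04% higher over all genes tested. These neighbours, too, were listed with earlier results of these data known, and nothing is read from the count. EREG (chromosome 4, 74365143 to 74388751) and AREG (74445134 to 74455009), which encode the EGF receptor ligands epiregulin and amphiregulin, lie 625 and 705 kb from the start of CXCL8. EREG stood at 14687, 12733 and 18558 in vector and 7004, 6699 and 7239 in nPD-L1 libraries (−1.12, SE 0.14, adjusted p = 0.000649). AREG had 5551, 6136 and 5492 against 2967, 2588 and 2665 (−1.06, SE 0.0999, adjusted p = 9.8e-05). Between CXCL2 and these genes lies MTHFD2L, a mitochondrial folate enzyme, which differed by −0.05 (interval −0.35 to 0.25), and the platelet chemokine PF4, between CXCL1 and CXCL5, differed by −0.32 (interval −0.88 to 0.25).

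**Figure D4:**
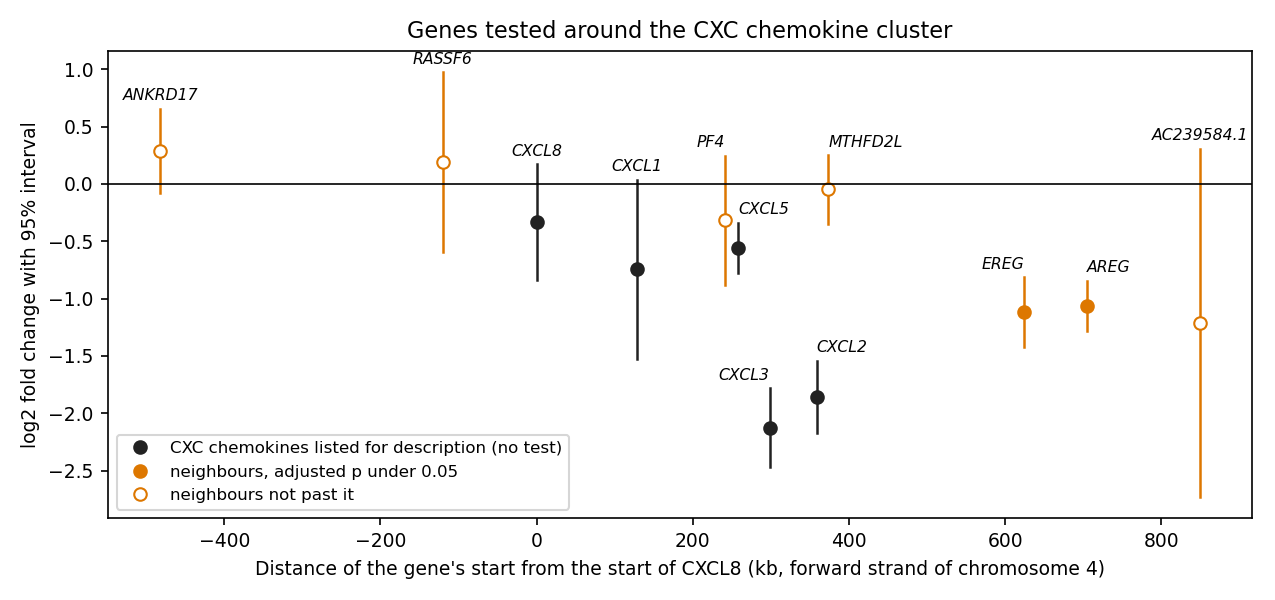
log2 fold change with 95% interval against the distance (kb) of each gene's start from the start of CXCL8, for the 5 CXC chemokines (black, described with no test) and the 7 tested neighbours (orange, filled where the adjusted p was under 0.05). CXCL3 and CXCL2 lie near −2, EREG and AREG near −1.1, and MTHFD2L, next to CXCL2, near 0.

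Genes with the pattern most like IL6 and IL11 over the 6 libraries were found by Pearson's r of log2(value + 1), with genes of a mean under 100 left out. As the 2 groups set much of such a pattern, r is a description of these libraries. Most like IL6 were SLFN11 (r = 0.995), NDUFA11 (r = 0.989) and GPR37 (r = 0.984) of 10725 genes, although SLFN11 varied only between 661 and 782 scaled reads. Most like IL11 were ELF4 (r = 0.999), ETS2 (r = 0.999) and CAMKK1 (r = 0.998) of 10724 genes. ETS2 stood at 1459, 1202 and 2250 in vector and 7388, 5657 and 6120 in nPD-L1 libraries, with the same order of libraries as IL11 in the vector group.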

How the data were processed

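RNA from 3 vector and 3 nPD-L1 Hep3B samples was sequenced by a company, and libraries were made with an NEBNext Ultra kit whose strand handling is not stated. The submitters' processing notes name CASAVA, HISAT2 2.0.5 and hg38, while the counter and annotation are not given in the sources used here. The authors deposited a signal per gene and library, reads divided by a size factor, under a name that calls it raw counts. All values in all 6 libraries were whole multiples of the value of 1 read (within 5e-05 of a read), and 0 value columns belonged to no sample. The deposited log2 fold change, p-value and adjusted p-value columns hold the authors' own comparison and were not used, nor were their mean columns.

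The main test was limma (3.58.1, R 4.3.3) on log2(value + 1), two-sided, with trend and robust moderation and no replicate block, over the 15076 genes that reached 10 in 3 or more libraries, with Benjamini-Hochberg adjustment over all of them and a threshold of 0.05. edgeR (4.0.16) and DESeq2 (1.42.0) were run on the recovered reads as alternatives. The main limma fit and these alternatives were checked on data simulated with the same dispersion for every gene. That check placed no changes in genes of as few reads as IL6 and did not cover the other alternatives. Other alternatives were pseudocounts, filters, scalings, non-robust moderation, a fold threshold, a replicate block and each library left out. Upstream sequences came from RefSeq, and transcripts and UTRs from GENCODE v29, read with Python 3.11.15 and Biopython 1.88. Intervals and recovered reads cover the spread of libraries and counting only.

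The 10 genes and all lists were chosen with earlier results of these data known. Genes named were all 10, the called genes of each list (up to 6 a direction), set receptors, called neighbours within 500 kb on chromosome 4, the 3 genes most like IL6 and IL11, and CD274. SOCS3, STAT3, FGA, CEBPD, RELA, NFKBIA, ZFP36, MTHFD2L, PF4, RC3H1, RC3H2, CX3CL1 and the uncalled cell type markers were named after their values were seen. Some results for single genes are not reported here.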

Additional observations from a re-analysis of the deposited data

How the results depend on the processing

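Precision is limited by the spread of 3 libraries a group, and for IL6 also by 5 to 73 reads. The groups share replicate numbers, but same-numbered libraries did not deviate together in every pair (r = −0.013, 0.229 and 0.131 over 15076 genes), so they were not treated as pairs. With the replicate number as a block, 927 genes were higher and 258 lower over all genes (609 and 139 without it), and 2 other cytokines, 5 mRNA-binding genes (RC3H1 and RC3H2 added) and 1 IL-6 signal gene (SOCS3) were higher. In that fit IL11 missed the threshold and CCL2 passed it. With no filter on low values, 0 of the 10 genes were higher past the threshold. IL11 missed it there with its log2 fold change unchanged at 3.67. With a log2 fold change of at least 1 also required, 306 genes were higher and 68 lower, and 0 NF-kB and C/EBP genes were higher. By edgeR 2 NF-kB and C/EBP genes (NFKBIZ and CEBPD) were lower, and by DESeq2 2 other cytokines and 5 mRNA-binding genes were higher. Leaving out single libraries gave 350 to 793 genes higher, with 356, 403 and 350 without nPD-L1 1, 2 and 3. It gave 77 to 244 genes lower, with 78 without vector 1, 244 without vector 2 and 84, 86 and 77 without nPD-L1 1, 2 and 3. Of the 10 genes, 3 (without vector 1 or nPD-L1 1) to 7 (without vector 3) were then lower. The other cytokines had 1 to 2 higher (2 without vector 2) and 0 to 1 lower (CX3CL1 without vector 3). NF-kB and C/EBP genes had 1 to 3 higher (1 without vector 1, nPD-L1 1 or nPD-L1 2) and 1 to 2 lower (2 without vector 3). There were 3 to 5 mRNA-binding genes higher (5 without vector 3) and 0 to 1 IL-6 signal genes lower (FGA without vector 3). The log2 fold changes of the 10 genes kept their sign in all alternatives run. Causes of these changes were not tested. IL6 could not be fitted where 10 scaled reads were required in every library.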
